A study of Homo sapiens with 4 samples.

Results

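The genes described here are 57 protein-coding genes for topoisomerases and for DNA repair, of 20176 protein-coding genes annotated on hg19. They were chosen by name: the 6 topoisomerases, the 2 enzymes that remove topoisomerases trapped on DNA, and 49 genes of 8 damage-signalling and repair pathways. A peak belonged to one of these genes when no other gene on that strand held more bases of the peak in its exons, and ties went to 1 gene by gene ID. The m7G methylation peaks came from MeRIP-seq, in which an antibody against 7-methylguanosine pulls RNA fragments out of poly(A)-selected, decapped and fragmented RNA. HL60 is an acute myeloid leukaemia cell line, labelled WT, and HL60/MX2 is its line labelled as drug-resistant cells, both bought from ATCC and with no treatment named in the labels. Each line is 1 cell line and gave 1 enriched library, so there is no replicate and the lines were not tested against each other. The 95% intervals are exact Clopper-Pearson intervals and take in counting error alone. The peak lists held 8070 peaks for HL60 and 8122 peaks for HL60/MX2, with a position, a strand and a score for each peak but no read counts, which leaves the depth of a peak unknown. A gene that is unmethylated, one that is little expressed and one that is thinly covered cannot be told apart in these lists, since mRNA levels and the input libraries were not analysed here.

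Topoisomerases relieve the twisting of DNA by cutting its strands, passing DNA through the cut and sealing it again. Mitoxantrone, the drug to which HL60/MX2 cells are resistant, traps type II topoisomerases (TOP2A and TOP2B) on DNA while the strands are cut. The trapped enzyme has to be removed, and the break it leaves is repaired by homologous recombination or by end joining after signalling kinases have sensed it. The other repair pathways act on bulky adducts, crosslinks, damaged bases and mismatches. Internal m7G is a methyl mark on guanosines inside an mRNA, apart from the cap.

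In HL60, 15 of the 57 genes had at least 1 peak (26.3%, interval 15.5 to 39.7%), against 26.4% of all protein-coding genes. In HL60/MX2, 16 genes had a peak (28.1%, interval 17.0 to 41.5%), against 28.5% of all genes. Both shares lay next to those of all genes. A peak in both lists was found for 7 genes, namely ATR, BRIP1, ERCC6, FANCD2, NBN, RAD54B and WRN (12.3%, interval 5.08 to 23.7%), against 12.0% of all genes. Peaks in HL60 only were found for 8 genes (14.0%, against 14.4% of all genes), and in HL60/MX2 only for 9 genes (15.8%, against 16.5%). The remaining 33 genes (57.9%, against 57.1% of all genes) had no peak in either list. The peaks numbered 24 in HL60 and 27 in HL60/MX2, with at most 4 in a gene, and 11 and 9 of the genes with a peak had only 1.

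**Figure D1:**
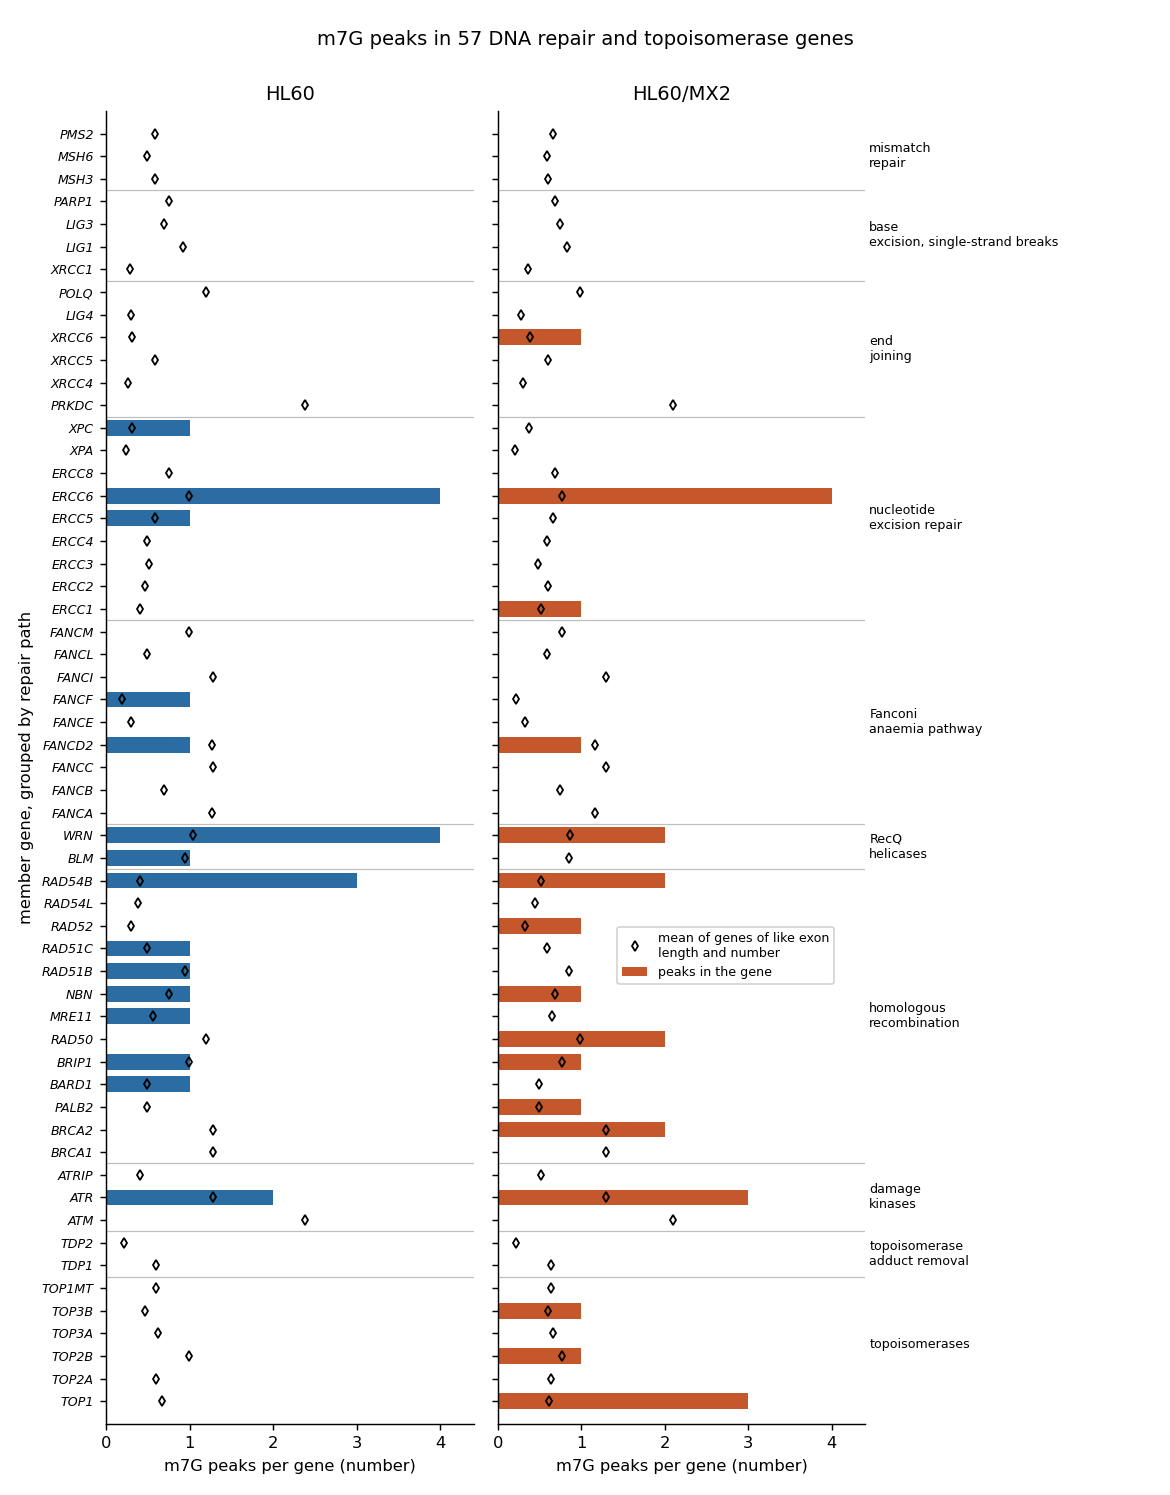
Number of m7G peaks (x axis) in each of the 57 genes (y axis, grouped by pathway) in HL60 and HL60/MX2, with 1 library per line, and the mean number in genes of like exon length and number (open diamonds). Topoisomerase genes have bars only in HL60/MX2 (3 of 6, where like genes gave 1.43 with a peak in that line only). ERCC6 has 4 peaks in each line, and 33 genes have no bar.

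The genes are long and have many exons, with a median of 8412 bp of merged exon in 20 exons against 4385.5 bp in 9 exons over all protein-coding genes, and long genes with many exons had peaks more often. Each gene was therefore set beside the genes of like exon length and exon number. Exons were merged over all annotated transcripts of a gene, so their length can far exceed that of its mRNA. By the shares of such genes, 24.5 of the 57 in HL60 and 26.3 in HL60/MX2 would hold a peak, so the observed 15 and 16 were 0.613 and 0.608 times those numbers. The shares of like genes were 42.9 and 46.2%, and the intervals of the observed shares had upper ends of 39.7 and 41.5%. This is no test, since the genes were chosen by name and are not replicates. The lists are also not independent, since 7 of the genes had a peak in both. The peaks came to 35.8 per Mb of exon in HL60 and 40.2 in HL60/MX2, against 69.4 and 69.9 over all genes, and 42.1 and 41.4 peaks would be found at the mean peak numbers of like genes. The difference from like genes was seen mainly in the genes with more merged exon. That order does not always follow the mRNA. FANCL, above the median, has 37977 bp of merged exon but a longest coding transcript of 1680 nt. WRN, below the median, has 8222 bp of merged exon and a longest coding transcript of 7575 nt. A split by transcript length was not made. Of the 29 genes at or above the median exon length, 7 in HL60 had a peak where like genes gave 15.2, and 9 had one in HL60/MX2 where like genes gave 16.1. Of the 28 genes below the median, 8 and 7 had a peak where like genes gave 9.25 and 10.3.

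Among the 33 genes without a peak were some of the longest of the set. ATM, the kinase that answers to DNA double-strand breaks, has 39184 bp of merged exon in 60 exons (longest coding transcript, 12954 nt). PRKDC, the kinase of end joining, has 29072 bp in 84 exons (longest coding transcript, 13458 nt). Of the genes like them, 75.0% (HL60) and 81.5% (HL60/MX2) had a peak, with a mean of 2.38 and 2.10 peaks. BRCA1, FANCC and FANCI shared a group of like genes of which 68.0 and 73.6% had a peak, and the like genes of POLQ, the polymerase of theta-mediated end joining, had one in 61.0 and 59.5%. Like genes were matched on merged exon, of which FANCC has 18465 bp in 34 exons. Its longest coding transcript has only 4592 nt in 15 exons. For 13 of the 57 genes, more than 50% of the like genes had a peak in each list, a limit chosen after the values were seen. Of these 13, peaks were found for 3 in HL60 and for 5 in HL60/MX2, and 8 had none (ATM, BRCA1, FANCA, FANCC, FANCI, LIG1, POLQ and PRKDC).

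**Figure D2:**
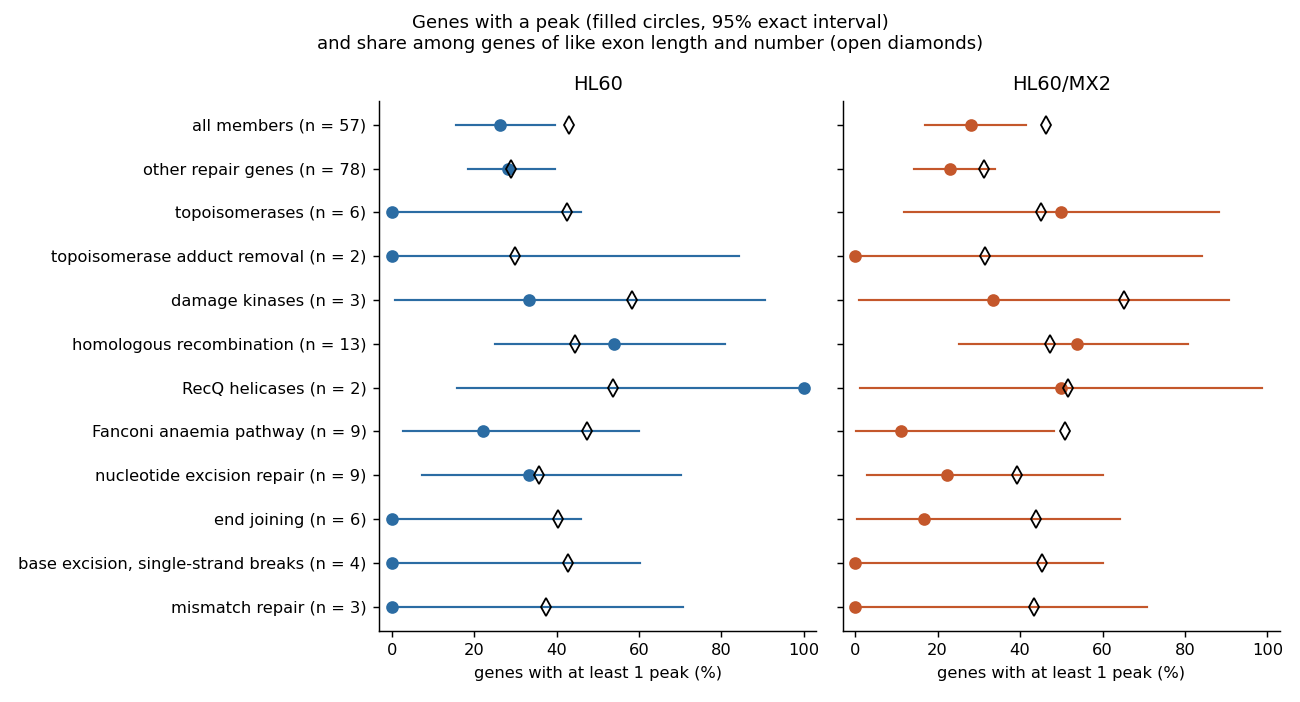
Share of genes with at least 1 peak (x axis, %) in all 57 genes, in 78 other repair genes and in each pathway (filled circles, lines for the exact 95% interval), beside the share among genes of like exon length and number (open diamonds). For all 57 genes the diamonds (42.9 and 46.2%) lie right of the intervals, while in each pathway but the Fanconi genes of HL60/MX2 they lie inside. The intervals run over genes chosen by name and are no test.

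None of the 6 topoisomerases had a peak in HL60 (0 of 6, which allows a share of up to 45.9% by the exact interval; like genes gave 2.55), and 3 of 6 had one in HL60/MX2 (50%, interval 11.8 to 88.2%; like genes gave 2.71). For a peak in HL60/MX2 only, like genes gave 1.43 of the 6 (23.8%, inside that interval), and the share of all protein-coding genes was 16.5%. TOP1, which cuts 1 strand of DNA at a time and is the target of camptothecin, had 3 of the 5 topoisomerase peaks, all in the coding sequence. In TOP1 (chromosome 20, plus strand), the peaks lay in exon 4 of 21 (chr20:39704811-39704934), exon 6 (chr20:39708731-39708820) and exon 7 (chr20:39709805-39709880). Their scores were 1214.49, 83.12 and 618.8. The score is the authors' value for a peak and its scale is not stated, so it is read here by its percentile within its own list, which was 96.2, 11.8 and 84.1 for these peaks. The exon 6 and exon 7 peaks met at the splice junction, the first running to the end of exon 6 and the second covering all of exon 7, so that on the mRNA they formed a run from nucleotide 588 to nucleotide 753. They covered codons 114 to 169 and the exon 4 peak codons 52 to 93 of 765, all in the N-terminal part of the enzyme. TOP2B, a type II topoisomerase and a mitoxantrone target, had 1 peak of 60 bp in exon 26 of 36 (chr3:25656922-25656981, minus strand), over codons 1150 to 1169 of 1626, with a score of 1191.82 (percentile 95.9). TOP3B, a type IA topoisomerase that also acts on RNA, had 1 peak of 232 bp, of which 209 bp lie in the first exon of the longest coding transcript, in the 5′UTR (chr22:22336939-22337170, minus strand), with a score of 539.91 (percentile 78.9). The transcribed strands of the coding peaks are given as read from the hg19 genome, 5′ to 3′, because they show which letters the TOP1 and TOP2B peaks hold. Capitals mark the motifs examined for this series, CTG followed by G or T and then by A or G (CUGKR in RNA letters) and GGAA followed by A or G (GGAAR).
TOP1 exon 4: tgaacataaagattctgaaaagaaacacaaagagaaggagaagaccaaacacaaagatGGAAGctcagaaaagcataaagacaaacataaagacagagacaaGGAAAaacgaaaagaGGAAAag
TOP1 exon 6: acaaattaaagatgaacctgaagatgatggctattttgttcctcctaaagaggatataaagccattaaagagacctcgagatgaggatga
TOP1 exon 7: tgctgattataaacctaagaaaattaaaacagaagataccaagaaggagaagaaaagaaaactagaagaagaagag
TOP2B exon 26: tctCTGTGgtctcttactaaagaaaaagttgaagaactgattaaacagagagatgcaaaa

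The exon 4 sequence of TOP1 held GGAAR 3 times, and 44% of 684 peaks of like length over any gene held it at least once. The exon 6 and exon 7 sequences held neither motif. The TOP2B sequence held CUGKR once, and 35.2% of 446 peaks of like length held it at least once. TOP2A, the type II enzyme of dividing cells, TOP3A, which dissolves recombination intermediates, and TOP1MT, the mitochondrial enzyme, had no peak in either list. Neither had TDP1, which removes trapped TOP1, nor TDP2, which removes trapped type II topoisomerases (like genes gave 0.596 and 0.631 of the pair). TOP3B has 1 annotated pseudogene by its symbol, and how reads that map to several places were treated is not given in the sources used here.

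Of the 3 damage-signalling genes, ATR had peaks in both lists and ATM and ATRIP had none (like genes gave 1.75 and 1.95 genes). ATR is the kinase that responds to single-stranded DNA at stalled replication forks. In HL60 it had a peak of 165 bp in coding exon 32 of 47 (chr3:142217439-142217603, score 192.25, percentile 49.2) and one of 319 bp over an exon of a non-coding ATR transcript (chr3:142171040-142171358, score 343.24, percentile 75.6). In HL60/MX2 it had 3 coding peaks, in exon 13 (chr3:142272069-142272093), exon 25 (chr3:142234237-142234349) and exon 28 (chr3:142226773-142226851). Their scores were 1314.5, 174.68 and 137.38 (percentiles 96.9, 35.3 and 27.2). No ATR peak overlapped one of the other list, as held for most peaks (overlap in 6.13% of all HL60 and 6.09% of all HL60/MX2 peaks). The nearest ATR pair lay 362 nt apart on an mRNA of 8158 nt. The ATR peaks of HL60/MX2 follow with the same capitals, to show that the highest-scoring one was only 25 bp long and held neither motif.
ATR exon 13: ccagtataagaaacccatctgtcag
ATR exon 25: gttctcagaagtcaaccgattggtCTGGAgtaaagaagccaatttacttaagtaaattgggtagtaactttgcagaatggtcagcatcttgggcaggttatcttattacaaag
ATR exon 28: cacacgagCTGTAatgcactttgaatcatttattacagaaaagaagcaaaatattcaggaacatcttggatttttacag

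Homologous recombination, which repairs a break from an intact copy, is the largest of the pathways here. Of its 13 genes, 7 had a peak in HL60 (like genes gave 5.78) and 7 in HL60/MX2 (like genes gave 6.14), and 3 of them had one in both. BRCA2, a mediator of recombination, had 2 short peaks in HL60/MX2 only. One of 29 bp in exon 12 of 27 (chr13:32918762-32918790) had a score of 349.62 (percentile 61.7), and one of 18 bp in exon 18 (chr13:32937653-32937670) had 226.96 (percentile 44.7). PALB2, which joins BRCA1 to BRCA2, also had a peak in HL60/MX2 only (exon 9, score 100.32, percentile 16.8), and BARD1, the partner of BRCA1, only in HL60. The BARD1 peak of 120 bp ended the mRNA (chr2:215590370-215590489, 3′UTR, score 310.4, percentile 71.0). BRCA1 itself had none, which its 1 annotated pseudogene by symbol leaves uncertain, since how reads that map to several places were treated is not given. RAD51B, which takes part in strand exchange, had a peak over all of exon 10 of 11 in HL60 (chr14:68934889-68934967, score 438.33, percentile 85.0), and RAD51C had a listed peak of 1 bp in HL60 (score 198.21), too short to read a site from. BRIP1, a helicase that binds BRCA1, had a peak in each list, in coding exon 10 in HL60 (score 54.58, percentile 2.42) and in the 3′UTR in HL60/MX2 (411 bp, score 196.37, percentile 39.2), 5171 nt apart on the mRNA. The BRCA2 and RAD51B peaks are printed because they are short coding stretches or, for RAD51B, a whole exon. Each BRCA2 peak has an edge on an exon end, and its short length does not place a methylated site.
BRCA2 exon 12: cttaaaggcttcaaaaagcactccagatg
BRCA2 exon 18: gaatctcttatgttaaag
RAD51B exon 10: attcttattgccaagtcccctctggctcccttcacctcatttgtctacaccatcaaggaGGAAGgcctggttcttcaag

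The 3 subunits of the MRE11 complex, which finds double-strand breaks and trims their ends, differed in where their peaks lay. NBN, the signalling subunit, had a peak in neighbouring exons of the 2 lists, exon 10 in HL60 (score 53.15, percentile 2.04) and exon 9 in HL60/MX2 (score 389.33, percentile 65.9), 121 nt apart on the mRNA. MRE11, the nuclease, had a peak in HL60 only (exon 14, score 55.02, percentile 2.61), and RAD50, the ATPase, in HL60/MX2 only, over the neighbouring exons 8 and 9 (scores 315.02 and 134.24), which met at the splice junction. RAD52, which anneals single strands, had a peak of 34 bp on another isoform in HL60/MX2 only (score 297.46, percentile 54.9). MRE11 and RAD52 each have 1 annotated pseudogene by symbol. The values of MRE11, RAD50, RAD52 and PALB2 were added after they were seen. The RAD50 peaks lie equally in a readthrough gene that shares its exons. RAD54B, a DNA translocase, had 3 peaks in HL60 (exons 2, 4 and 8, scores 120.86, 203.83 and 394.28) and 2 in HL60/MX2 (exons 2 and 5, scores 104.28 and 284.67). The exon 4, 5 and 8 peaks of RAD54B lie in exons also annotated to FSBP. RAD54L had no peak.

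BLM and WRN, RecQ helicases that unwind recombination intermediates and, when mutated, cause Bloom and Werner syndromes, both had a peak in HL60 (like genes gave 1.07), and WRN alone in HL60/MX2 (like genes gave 1.03). The BLM peak of 53 bp in exon 21 of 22 (chr15:91354435-91354487) had a score of 62.55 (percentile 6.60). WRN had 4 coding peaks in HL60, in exons 3, 18, 32 and 33, with scores of 237.62, 447.3, 176.07 and 54.54. In HL60/MX2 it had 2, in exons 29 and 33, with scores of 726.03 and 1356.62. The exon 33 peak had the same start and end in both lists (chr8:31014884-31015046, plus strand), covered the whole exon of 163 bp and codons 1274 to 1328 of 1432. Its score was among the lowest of the HL60 list (percentile 2.40) and among the highest of the HL60/MX2 list (percentile 97.0). Of the 495 pairs of overlapping peaks in the whole series, none differed more in percentile than this one (94.6 points, against a median of 29.4 points in either direction). With 1 library per line, no spread between libraries is known against which to read that difference.

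**Figure D3:**
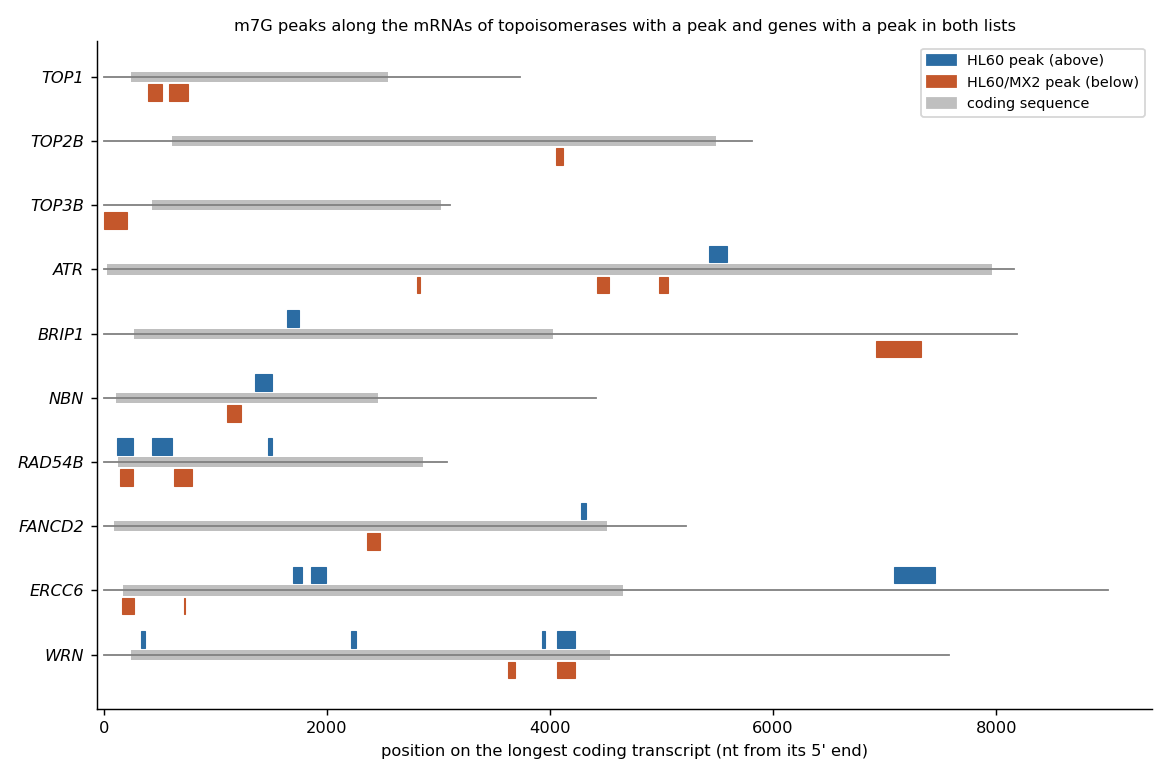
m7G peaks on the mRNAs of the 3 topoisomerases with a peak and of the 7 genes found in both, with HL60 peaks above and HL60/MX2 peaks below each mRNA (x axis, nucleotides from the 5′ end of the longest coding transcript; grey, coding sequence). Overlap of the lines is seen in exon 33 of WRN and exon 2 of RAD54B, and peaks off these transcripts are not drawn.

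Of the 9 genes of the Fanconi anaemia pathway, which unhooks DNA crosslinks, 2 had a peak in HL60 (like genes gave 4.26) and 1 in HL60/MX2 (11.1%, interval 0.281 to 48.2%; like genes gave 4.58, or 50.9%). FANCD2, the protein that is ubiquitinated when the pathway is switched on, had a peak in both lists at different sites, exon 43 in HL60 (41 bp, chr3:10140404-10140444, score 114.11, percentile 26.7) and exon 25 in HL60/MX2 (116 bp, chr3:10107548-10107663, score 50.1, percentile 0.0554). They lay 1800 nt apart on the mRNA. The HL60/MX2 peak covered the whole exon, and its score was close to the lowest in that list. FANCD2 has 1 annotated pseudogene by its symbol. FANCF, an adaptor of the core complex with a single exon, had a 3′UTR peak of 265 bp in HL60 only (chr11:22644609-22644873, score 182.89, percentile 47.1). FANCA, FANCB, FANCC, FANCE, FANCI, FANCL and FANCM had none.

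In nucleotide excision repair, which cuts out bulky adducts, 3 of 9 genes had a peak in HL60 (like genes gave 3.22) and 2 in HL60/MX2 (like genes gave 3.53). ERCC6, the Cockayne syndrome protein that starts repair at stalled RNA polymerase, had 4 peaks in each list and the most peaks of the 57 genes over both lists. None of the 8 overlapped a peak of the other list, and few peaks did in the whole lists (6.13% in HL60 and 6.09% in HL60/MX2). In HL60 they lay in the 3′UTR (370 bp, chr10:50664062-50664431, score 420.66), in exon 8 (136 bp, chr10:50701163-50701298, score 169.83), partly in exon 7 (339 bp, of which 78 bp lie in the exon and 261 bp off the longest coding transcript, chr10:50708665-50709003, score 302.35) and over an exon of a non-coding transcript (424 bp, chr10:50712875-50713298, score 180.83). In HL60/MX2 they lay around the start codon in exon 2 (114 bp, chr10:50740911-50741024, score 521.67), in exon 4 (16 bp, chr10:50736556-50736571, score 211.87), around the start codon of another isoform (107 bp, chr10:50747478-50747584, score 55.85) and over an exon of a non-coding transcript (223 bp, chr10:50711100-50711322, score 282.6). On the longest coding transcript, of 9001 nt, the HL60/MX2 peaks thus ended by nucleotide 733 and the HL60 peaks began at nucleotide 1701. Off that transcript this order did not hold. The HL60 peak at chr10:50712875-50713298 lies 5′ of the HL60/MX2 peak at chr10:50711100-50711322, the gene being on the minus strand. The authors list ERCC6 first among their down-methylated genes in HL60/MX2, at a position outside these 8 peaks. Coding sequences of these peaks are shown beside their places on the longest coding transcript. They are all of exon 8 from HL60 and the exon 4 and exon 2 peaks from HL60/MX2, the last from the start codon on. The whole exon 2 peak of 114 bp holds CUGKR once, not within the 100 nt printed.
ERCC6 exon 8 in HL60: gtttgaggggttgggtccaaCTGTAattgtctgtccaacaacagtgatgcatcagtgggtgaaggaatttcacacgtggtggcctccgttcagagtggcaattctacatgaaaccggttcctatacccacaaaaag
ERCC6 exon 4 in HL60/MX2: gaacaacagctaaaaa
ERCC6 exon 2 in HL60/MX2: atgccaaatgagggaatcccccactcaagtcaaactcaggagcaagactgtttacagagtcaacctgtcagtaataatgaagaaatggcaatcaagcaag

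The other excision repair genes with a peak were each found in 1 list. ERCC1, which with ERCC4 cuts on the 5′ side of a lesion, had the highest score of the 27 HL60/MX2 peaks, 1497.55 (percentile 97.6). That peak covered 158 bp of the 5′UTR of an isoform other than the longest coding one (chr19:45927468-45927625, minus strand). ERCC5, which cuts on the 3′ side, had a peak of 43 bp in HL60 (chr13:103498174-103498216, score 136.48, percentile 33.4). That peak began upstream of the annotated gene start (103498181) and ran into the 5′UTR of another isoform. XPC, which finds the distorted helix, had a peak of 112 bp in coding exon 4 of 16 in HL60 (chr3:14209757-14209868, score 99.68, percentile 21.4). It held CUGKR 3 times, and 53.9% of 724 peaks of like length held it at least once. ERCC2, ERCC3, ERCC4, ERCC8 and XPA had no peak.
XPC exon 4 in HL60: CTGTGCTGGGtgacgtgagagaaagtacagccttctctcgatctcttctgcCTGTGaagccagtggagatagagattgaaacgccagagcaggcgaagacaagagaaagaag

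The remaining repair pathways had 1 peak between them. In end joining, which ligates broken ends without a template, XRCC6 (Ku70, a subunit of the ring that binds the ends) had a 5′UTR peak of 185 bp in HL60/MX2 (chr22:42017354-42017538, score 200.35, percentile 39.6), and 0 of 6 genes had a peak in HL60 (like genes gave 2.42 and 2.63). XRCC6 has 5 annotated pseudogenes by its symbol. XRCC5 (Ku80), XRCC4, LIG4, PRKDC and POLQ had none. In base excision and single-strand break repair, PARP1, XRCC1, LIG1 and LIG3 had no peak in either list (like genes gave 1.71 and 1.81 of 4). In mismatch repair, MSH3, MSH6 and PMS2 had none (like genes gave 1.12 and 1.30 of 3). PARP1 and PMS2 have 2 and 11 annotated pseudogenes by symbol, which leaves their lack of a peak uncertain in the same way.

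Genes found in both lists mostly had their peaks at different places. Of the 24 peaks of HL60, 2 overlapped a peak of HL60/MX2 (8.33%, interval 1.03 to 27.0%), and 2 of the 27 of HL60/MX2 overlapped one of HL60 (7.41%, interval 0.910 to 24.3%), against 6.13 and 6.09% of the whole lists. The pairs were WRN exon 33, described above, and RAD54B exon 2, whose peaks around the start codon started together and overlapped over the whole length of the HL60/MX2 peak, 122 bp (chr8:95479633-95479783 in HL60 and chr8:95479633-95479754 in HL60/MX2). In ERCC6 the nearest peaks of the lists lay 1552 bp apart on the genome and in ATR 9169 bp. Both shared pairs were on chromosome 8, which holds 5 of the 57 genes and 8 of the 24 HL60 and 5 of the 27 HL60/MX2 peaks. Without those 5 genes, 12 of 52 genes carried a peak in HL60 and 13 did in HL60/MX2, where like genes gave 21.9 and 23.6.

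Along the mRNA, the peaks lay mostly in coding sequence. Of 20 HL60 peaks on the longest coding transcript, 16 lay in the coding sequence (80%, interval 56.3 to 94.3%), 3 in the 3′UTR (15.0%, interval 3.21 to 37.9%) and 1 within 100 nt of the start codon. Of 23 in HL60/MX2, 18 lay in the coding sequence (78.3%, interval 56.3 to 92.5%), 2 in the 5′UTR, 2 around the start codon and 1 in the 3′UTR (4.35%, interval 0.110 to 21.9%). No peak was placed around a stop codon. The HL60/MX2 peaks in the 5′UTR, of TOP3B and XRCC6, reached the first nucleotide of that transcript. On other isoforms, an HL60/MX2 peak of ERCC6 and the HL60 peak of ERCC5 reached the annotated 5′ end of the gene. Whether cap m7G was left in such peaks after decapping was not tested. Over the whole lists, 64.2 and 59.9% of peaks lay in the coding sequence and 21.0 and 18.2% in the 3′UTR, values inside the intervals of these genes. The classes depend on the transcript: with every coding isoform considered and any UTR or codon class placed first, the coding share was 27.3% in HL60 and 26.9% in HL60/MX2, beside 35.1 and 31.9% of the whole lists. The 3′UTR share was then 50% (interval 28.2 to 71.8%) and 38.5% (interval 20.2 to 59.4%), beside 30.8 and 27.6%. A further 4 peaks in each list lay off the longest coding transcript, 3 of these 8 on exons of non-coding transcripts alone. An edge of the peak fell exactly on an exon end in 18 of the 24 HL60 peaks (75.0%, against 68.6% of the list) and in 23 of the 27 HL60/MX2 peaks (85.2%, against 69.0%).

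**Figure D4:**
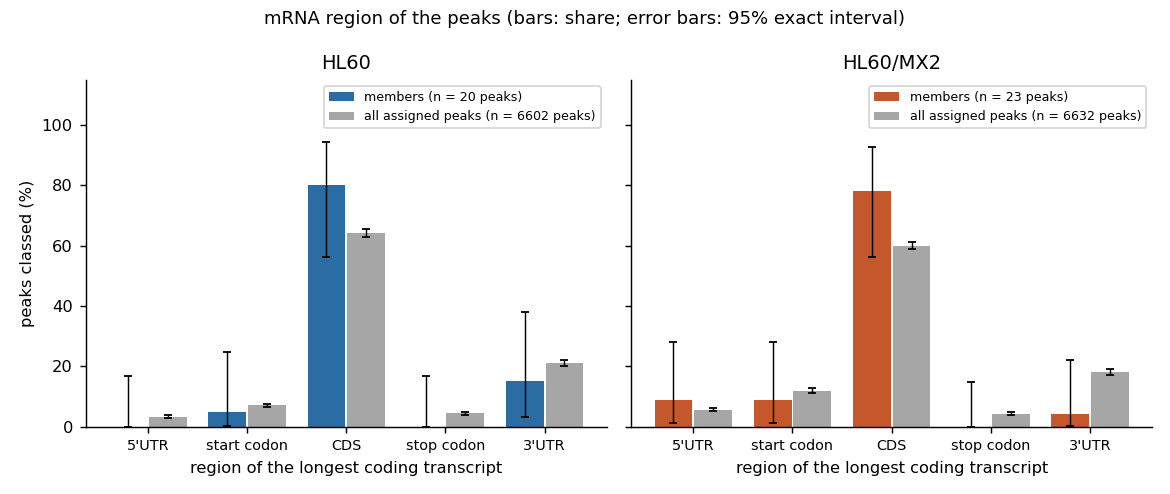
Share of peaks (%) in each region of the longest coding transcript for the 57 genes (colour) and for all assigned peaks of the list (grey), with exact 95% intervals as error bars. The coding bars stand at 80% (HL60) and 78.3% (HL60/MX2), and the wide intervals contain the whole-list shares.

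The scores of the HL60 peaks ran from 53.15 to 447.3 with a median of 181.86, at a median percentile of 46.7 in their list. Of the 24, 10 lay above the list median and 0 in the top decile (interval 0 to 14.2%). In HL60/MX2 the scores ran from 50.1 to 1497.55 with a median of 284.67, at a median percentile of 53.5, and 15 of the 27 lay above the list median. In the top decile were 5 of them (18.5%, interval 6.30 to 38.1%; 9.80% over all assigned peaks of that list), in ERCC1, WRN, ATR, TOP1 and TOP2B. The peaks were of ordinary length, with medians of 116 bp in HL60 and 113 bp in HL60/MX2 against 128 and 132 bp over all assigned peaks. Their mean GC content was 44.5 and 43.5%, against 46.0 and 49.4%. The HL60 mean takes in the RAD51C peak of 1 bp, which counts as 100% GC. The medians were 38.3 and 43.0%, against 45.2 and 48.1%.

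**Figure D5:**
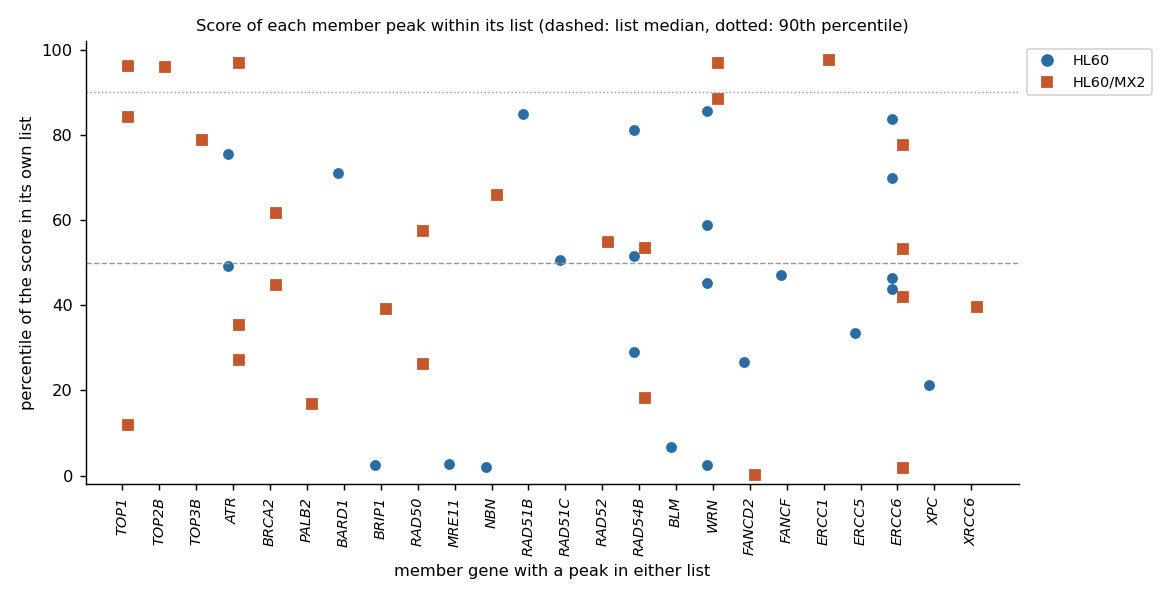
Percentile of each peak's score within its own list, (y axis) in each gene with a peak (x axis), with circles for the 24 HL60 peaks, squares for the 27 HL60/MX2 peaks, a dashed line at the list median and a dotted line at the top decile. HL60/MX2 has 5 points in the top decile and HL60 has 0.

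The motifs were searched on the transcribed strand in peaks of at least 5 nt. CUGKR was present in 9 of 23 HL60 peaks (39.1%, interval 19.7 to 61.5%) and 11 of 27 HL60/MX2 peaks (40.7%, interval 22.4 to 61.2%), below the 56.6 and 57.8% of all assigned peaks. At the shares of peaks of like length, 12.2 and 13.7 peaks would hold it. GGAAR was present in 9 of 23 (39.1%) and 9 of 27 (33.3%, interval 16.5 to 54.0%), beside 44.3 and 43.5% of all assigned peaks and 9.69 and 10.1 at like lengths. A match describes the letters of a peak and does not place the methylated base.

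Beside the 57 genes, 78 other genes of the same pathways were examined. Of these, 22 had a peak in HL60 (28.2%, interval 18.6 to 39.5%; like genes gave 22.7) and 18 in HL60/MX2 (23.1%, interval 14.3 to 34.0%; like genes gave 24.4). The observed numbers were 0.971 and 0.738 times those of like genes, where they were 0.613 and 0.608 times for the 57 genes, and 11 of the 78 had a peak in both lists. The genes with the most peaks, 3 or more over both lists and named for that after the values were seen, included CLSPN (claspin, the adaptor through which ATR activates CHEK1), with 1 peak in HL60 and 4 in HL60/MX2. SPRTN, a protease for proteins crosslinked to DNA, and PARG, which takes poly(ADP-ribose) off proteins, each had 1 and 2. TP53BP1, RBBP8 and NHEJ1, which steer or carry out the repair of double-strand breaks, each had 2 and 1.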

How the data were processed

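Of the 4 libraries of the series (enriched and input RNA of each cell line), the 2 enriched ones have the peak lists used. The authors trimmed reads with Cutadapt (1.9.3 in the submitters' notes, which also name STAR), aligned them with Hisat2 (2.0.4), called peaks with MACS and kept those over exons. The version and settings of MACS are not given in the sources used here. The deposited score of each peak is the authors' value and its scale is not stated. Without counts, the depth of the libraries is unknown.

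Starts were converted to count from 1. Genes came from GENCODE release 44 on hg19 (chromosome 1, 249250621 bp), and each peak went to the gene whose exons it overlapped most on its strand, ties being broken by gene ID. Like genes were those of the same of 20 bins of merged exon length and 5 bins of exon number in each, without the genes described, and the shares of each gene's bin with a peak were summed. Peaks of like length came from the same list. Region classes followed the longest coding transcript, start and stop codons taking 100 nt to either side, and peaks were shared at 1 bp of same-strand overlap. No test was made, with 1 library per line. The genes and lists were chosen with earlier results of these data known. Named with values were the topoisomerase and TDP genes, ERCC6, genes with overlapping peaks, up to 4 genes with the most peaks in each pathway and those of the 10 highest scores of each list. Alternatives changed the score and length limits, the assignment, the overlap, the bins, the classes and the motif strand. The steps were tested on simulated data and used Python 3.11.15, numpy 2.4.6, scipy 1.17.1, pysam 0.24.0 and matplotlib 3.10.9.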

Additional observations from a re-analysis of the deposited data

How the results depend on the processing

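No replicate could be left out. No paired analysis was possible because there is 1 library per line. Of 74 alternative values for 27 results, 61 stayed within 1.5 times the count or inside the interval. The other 13 were as follows. With only peaks at or above the median score of their list, 7 genes were left with one in HL60 and 4 in both lists, on 10 and 15 peaks, and 0 peaks of HL60 and 0 of HL60/MX2 were shared. With all protein-coding genes in place of like genes, 15.0 and 16.3 genes would hold a peak, close to the 15 and 16 found, so the difference from like genes rests on matching exon length and number. With bins of the longest coding transcript, an alternative added after seeing the data, 13 genes stood against 19.8 in HL60 (0.656 times) and 14 against 21.5 in HL60/MX2 (0.652 times). Leaving out the chromosome 8 genes was also added after seeing the data. With all coding isoforms, the coding shares were 27.3 and 26.9% and the 3′UTR shares 50% and 38.5%, by construction, since UTRs of any isoform came first. On the opposite strand, GGAAR was in 13.0% of the HL60 peaks. The 0 and 3 topoisomerases with a peak were the same numbers under the alternatives for score, length and assignment. The intervals rest on peak numbers alone, since no read counts are given.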
